A study of Mus musculus with 2 samples.

Results

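The genes described here are the Fos and Jun families of AP-1 subunits with 2 related partners: Fos, Fosb, Fosl1, Fosl2, Jun, Junb, Jund, Atf3 and Batf3. They were taken from the deposited count table by gene symbol, and all 9 were found among its 27179 genes. All 9 also had a mean of at least 1 CPM (counts scaled to library size) over the pair of libraries, as did 12759 genes in all. The set was chosen by its CPM values in the same 2 libraries, which differed between them, so the values below describe that difference and do not test it.

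The cells were MIN6, an insulin-secreting line from a mouse insulinoma that stands in for pancreatic beta cells. The C2cd4a-GFP library came from cells expressing the mouse protein C2cd4a joined to green fluorescent protein (GFP), and the Control-GFP library from cells expressing what the labels call Control-GFP. Both labels describe adenoviral infection at an MOI (infectious particles per cell) of 100 in medium with polybrene, and RNA extraction 72 to 96 h after infection. Because the treatment text mentions only the C2cd4a-GFP virus, even for the control, the grouping follows titles and characteristics. There was 1 library per group, so no difference has a replicate check, and whether each came from 1 culture or several is not stated in the labels.

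AP-1 is a transcription factor made of a pair of proteins joined through leucine zippers. Fos proteins cannot pair with themselves and bind DNA only with a partner such as a Jun protein, whereas Jun proteins can also pair with one another. Many of these genes are immediate-early genes, which growth factors, calcium entry and stress switch on quickly and briefly through MAP kinases, and in beta cells glucose and cAMP can do so too. The make-up of the pair matters because subunits differ in how strongly they activate transcription and in which partners they take.

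The libraries held 30164106 counts for C2cd4a-GFP and 31039999 for Control-GFP. C2cd4a itself had 49238 counts for C2cd4a-GFP and 133 for Control-GFP. The beta-cell markers Ins1, Ins2, Iapp, Pdx1, Nkx6-1, Mafa, Slc2a2, Slc30a8, Ucn3, Abcc8 and Kcnj11 were detected in both libraries, and Ucn3, the lowest of them on average, had 1110 counts for C2cd4a-GFP and 1373 for Control-GFP. Their levels were not all equal. Of 12 beta-cell genes, 2 lay above and 10 below equality between the libraries. Ins1 (log2 ratio -0.91) and Slc2a2 (-0.77) were lower by the size rule given below, which called 4.23% of all genes lower. Of the markers of other cells, the 6 alpha-cell genes summed to 821 CPM for C2cd4a-GFP and 698 CPM for Control-GFP, with Gcg called higher. The 6 neuronal genes, many of which endocrine cells also express, summed to 924 and 981 CPM in C2cd4a-GFP and Control-GFP. The sums were 21.7 and 14.1 CPM for 9 acinar genes, with Ptf1a, Cpa1, Prss2, Pnlip, Cela2a and Amy2a5 at 0 in both. They were 42.0 and 53.7 CPM for 6 ductal genes, with Krt19 and Sox9 at 0 in both. The 5 delta-cell genes summed to 3.92 and 4.58 CPM and the 4 genes of PP and epsilon cells to 52.0 and 26.0 CPM, of which Etv1 alone made up 50.6 and 25.2 CPM in C2cd4a-GFP and Control-GFP. Fibroblast, endothelial and leukocyte lists lay below 4 CPM in sum in both libraries. The part of any of these in the AP-1 values was not tested, and in bulk RNA fewer expressing cells and less RNA per cell cannot be told apart.

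The 3 Jun genes had less transcript in the C2cd4a-GFP library and the Fos genes split, with Fosl1 higher, Fosb lower and Fos and Fosl2 nearly level. Atf3 and Batf3 were moderately higher. A gene was called higher or lower when its ratio of scaled CPM reached 1.5 either way, its 95% counting interval excluded equal levels and its mean was at least 1 CPM. By this rule 1 of the 9 genes was higher (Fosl1) and 4 were lower (Jun, Fosb, Junb and Jund). Over all 12759 genes the rule called 540 higher and 540 lower, 4.23% each, or 8.46% either way, and scaling by total counts turned this into 682 and 453. Jund, with a log2 ratio of -0.71, was the called member nearest the threshold, and Batf3, with 0.43, the nearest outside it. The median log2 ratio of the 9 was 0.04, beside -0.01 over all genes of at least 1 CPM, because 5 members lay above and 4 below equality, where 49.2% of all genes lay above and 50.8% below. All intervals here are 95% intervals that cover counting error only, and ratios are on the log2 scale, C2cd4a-GFP over Control-GFP.

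**Figure D1:**
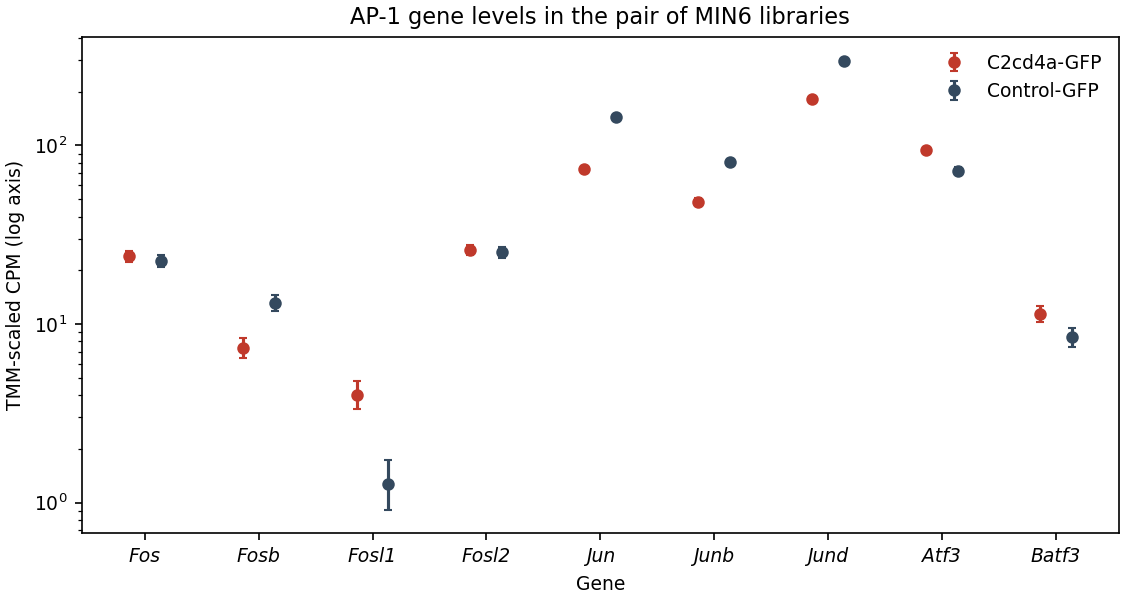
Level of each AP-1 gene as TMM-scaled CPM on a log axis, with the C2cd4a-GFP library in red and the Control-GFP library in dark grey, and bars for exact 95% Poisson counting intervals. Jun stood at 73.9 CPM for C2cd4a-GFP and 144 CPM for Control-GFP, while the intervals of Fos and of Fosl2 overlapped between the libraries.

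The sequences just upstream of the Jun genes and of Atf3 are given first, since Jun, Junb and Jund were lower together while Atf3 was higher. Each is the 250 bases before the annotated start, read 5′ to 3′ on the gene's strand, from the RefSeq promoter table of build GRCm38.p6, the assembly that mm10 also names. Capitals mark the match to a motif named after the sequences.
Jun, chr4:95052223-95052472, minus strand: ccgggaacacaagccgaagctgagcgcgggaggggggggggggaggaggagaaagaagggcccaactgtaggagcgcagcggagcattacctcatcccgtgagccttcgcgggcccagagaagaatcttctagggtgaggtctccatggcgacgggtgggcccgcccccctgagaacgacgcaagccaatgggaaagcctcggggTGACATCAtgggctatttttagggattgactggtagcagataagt
Junb, chr8:84978749-84978998, minus strand: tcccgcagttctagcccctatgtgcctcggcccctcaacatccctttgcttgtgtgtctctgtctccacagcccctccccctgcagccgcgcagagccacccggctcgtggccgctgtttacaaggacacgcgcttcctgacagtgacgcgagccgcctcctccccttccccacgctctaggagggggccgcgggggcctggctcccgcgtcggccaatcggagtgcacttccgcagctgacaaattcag
Jund, chr8:70697489-70697738, plus strand: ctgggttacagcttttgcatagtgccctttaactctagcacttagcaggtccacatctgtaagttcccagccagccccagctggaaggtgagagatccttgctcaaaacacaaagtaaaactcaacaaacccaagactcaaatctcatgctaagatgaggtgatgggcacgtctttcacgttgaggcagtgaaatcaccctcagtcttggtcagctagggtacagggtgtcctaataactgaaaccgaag
Atf3, chr1:191183334-191183583, minus strand: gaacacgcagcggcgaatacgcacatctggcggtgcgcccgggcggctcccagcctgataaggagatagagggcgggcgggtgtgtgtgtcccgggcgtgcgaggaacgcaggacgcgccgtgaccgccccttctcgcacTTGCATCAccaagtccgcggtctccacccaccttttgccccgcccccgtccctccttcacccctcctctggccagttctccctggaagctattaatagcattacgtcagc
Of the 9 genes 8 had an entry in that table, all but Fosl1. Both strands were searched for the AP-1 site TGACTCA, the CRE TGACGTCA, the AP-1-like TGACATCA, the CArG box bound by serum response factor, TATAAA, and TGATGCAA, a core shared by sites of ATF4 with C/EBP proteins. The Jun window held TGACATCA, 45 to 38 bases before the start, a sequence that 2.93% of all 32851 windows hold. The Atf3 window held TGATGCAA on the other strand, 110 to 103 bases before the start, found in 0.791% of windows. The Fos window held TATAAA 33 to 28 bases before its start, as 12.4% of windows do. None of the 8 windows held TGACTCA (4.46% of all windows), TGACGTCA (1.55%) or a CArG box (1.47%). Only exact matches within the 250 bases before the start were sought. Sites farther upstream, or differing from a motif by a base, would be missed, so a gene cannot be said to lack them. No motif overlapped another, and these are letter matches, not measured binding.

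Fos, the founding immediate-early gene of the family, had 732 counts for C2cd4a-GFP and 687 for Control-GFP, which scale to 23.9 and 22.5 CPM. The log2 ratio was 0.09 with an interval of -0.06 to 0.24, so no difference was detectable beyond counting error. Its gene lies on mm10 chromosome 12 at 85473901 to 85477269. Fosl2, which encodes Fra-2 and lies on chromosome 5 at 32136472 to 32157840, gave a similar picture, with 796 counts for C2cd4a-GFP and 771 for Control-GFP. Its log2 ratio was 0.04 (-0.10 to 0.19), and it came to -0.09 once the trend of the ratio with exon length was removed.

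Fosb, whose transcript can also be spliced into the shorter and long-lived form known as deltaFosB, had 226 counts for C2cd4a-GFP and 401 for Control-GFP. This was 7.38 CPM against 13.1 CPM, 1.78-fold lower, with a log2 ratio of -0.83 (-1.07 to -0.59). Fosb lies on chromosome 7 at 19302696 to 19310045, and its counts do not separate the splice forms. Fosb was thus the one Fos gene that lay with the Jun genes. Its ratio to Jun counts differed between the libraries by a log2 value of 0.13 (-0.12 to 0.38), and its ratio to Junb counts by -0.07 (-0.33 to 0.18).

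Fosl1, which encodes Fra-1, a Fos protein without the strong activation domain of Fos and known for its induction by sustained ERK signalling, was the only member called higher. It had 123 counts for C2cd4a-GFP and 39 for Control-GFP, or 4.02 CPM against 1.28 CPM. The ratio was 3.15-fold, with a counting interval of 2.18 to 4.64. It lay at the 99.8th percentile of log2 ratios among genes of at least 1 CPM, and was also the scarcest member by CPM, so its interval is the widest of the 9. Fosl1 lies on chromosome 19 at 5447698 to 5455938, plus strand, and 1155 of its 1705 exon bases are also exon bases of Ccdc85b on the minus strand. Ccdc85b had 777 counts for C2cd4a-GFP and 1093 for Control-GFP, a log2 ratio of -0.49 (-0.63 to -0.36), which is the opposite direction. The strand setting of the counting is not stated in the labels, so how reads in the shared bases were assigned cannot be told. Of the other 8 genes none overlapped another gene of the table.

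The Jun genes encode the main partners of Fos proteins and made up most of the AP-1 transcript in both libraries. Jun, which encodes c-Jun, the strongest activator of the group, had 2262 counts for C2cd4a-GFP and 4394 for Control-GFP. This was a 1.94-fold lower level of Jun in the C2cd4a-GFP library, with a log2 ratio of -0.96 (-1.03 to -0.89). Only 0.839% of genes of at least 1 CPM had a log2 ratio as low as that of Jun. The gene has a single exon of 3187 bases on chromosome 4, at 95049036 to 95052222.

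Junb, a weaker activator that can restrain c-Jun, had 1468 counts for C2cd4a-GFP and 2476 for Control-GFP, or 47.9 CPM against 81.0 CPM. Its log2 ratio was -0.76 (-0.85 to -0.66). Jund, the most evenly expressed of the Jun genes in many tissues, had 5563 counts for C2cd4a-GFP and 9091 for Control-GFP, or 182 CPM against 297 CPM. The log2 ratio of Jund was -0.71 (-0.76 to -0.66). Both genes consist of 1 exon and lie on chromosome 8, Jund at 70697739 to 70700616 and Junb at 84976909 to 84978748, 14276292 bases apart. Their ratio to each other hardly differed between the libraries, with 0.264 Junb counts per Jund count for C2cd4a-GFP and 0.272 for Control-GFP. That is a log2 change of -0.05 (-0.15 to 0.06), whereas Jun per Junb changed by -0.20 (-0.32 to -0.08) and Jun per Jund by -0.25 (-0.34 to -0.16).

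Exon length and base composition moved with the ratio over all genes and bear on Junb and Jund. Across genes of at least 1 CPM the log2 ratio had a Spearman's rho of 0.332 with exon length and -0.461 with GC content, as a description across genes that share both libraries. The GC content of the longest annotated transcript was 67.1% for Jund, 62.6% for Junb and 55.5% for Jun, beside a median of 49.8% over genes of at least 1 CPM. With both trends removed the log2 ratio was -0.48 for Jund and -0.47 for Junb, which are no longer calls, and -0.82 for Jun and -0.72 for Fosb, which remain calls. Removing the same trends placed Batf3 at 0.81, past the threshold, and Fosl1 at 1.93. The part of base composition in the lower Jun-family counts was not tested further.

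The authors' deposited table gives fold changes with an adjusted p, taken to be from DESeq2 because its sheet and the processing notes name that tool, and rests on an unstated number of libraries. It is not independent of the pair. In the authors' deposited table the adjusted p was under 0.05 for 4 of the 9 genes, Fosl1 and Atf3 upward and Jun and Fosb downward. Over 14619 genes in the authors' deposited table this held for 13.6%, with 7.0% upward and 6.58% downward. The authors' deposited table has a log2 fold change of -0.92 for Jun (DESeq2 adjusted p = 3.23e-15), -0.77 for Fosb (adjusted p = 2.06e-04) and 1.71 for Fosl1 (adjusted p = 1.29e-12). For Junb the authors' deposited table has -0.45 (DESeq2 adjusted p = 0.138) and for Jund -0.31 (adjusted p = 0.391), each nearer to 0 than in the pair and past no threshold. For Fos the authors' deposited table has 0.18 (DESeq2 adjusted p = 0.434) and for Fosl2 0.00 (adjusted p = 0.993).

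**Figure D2:**
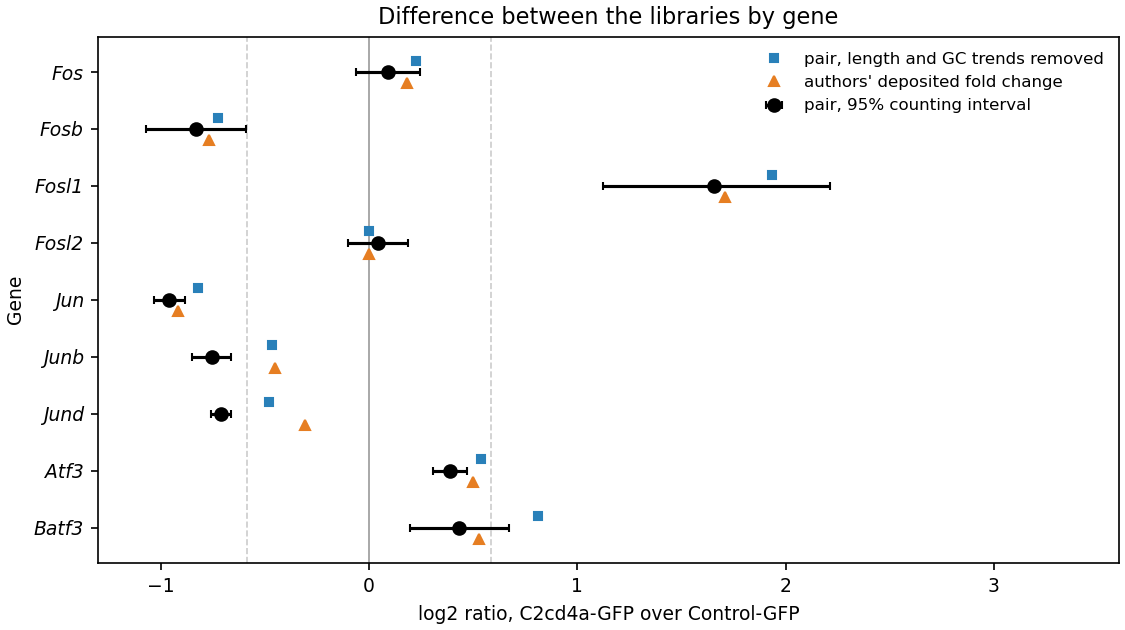
Log2 ratio of C2cd4a-GFP over Control-GFP for each AP-1 gene, as black points with 95% counting intervals, beside the ratio after removal of length and GC trends (blue squares) and the authors' deposited fold change (orange triangles). Dashed lines mark a 1.5-fold difference. The 3 values lie close together for Fosb and Jun, while those of Jund run from -0.71 to -0.31.

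Atf3, a stress-induced bZIP protein that represses transcription as a pair with itself and also pairs with Jun proteins, had 2897 counts for C2cd4a-GFP and 2210 for Control-GFP. This was 94.6 CPM against 72.3 CPM, a 1.31-fold higher level with a log2 ratio of 0.39 (0.31 to 0.47), short of the 1.5-fold rule. Batf3, a small bZIP protein known for its role in dendritic cells and which pairs with Jun proteins, had 350 counts for C2cd4a-GFP and 259 for Control-GFP. Its log2 ratio was 0.43 (0.20 to 0.67), also short of the rule. The authors' deposited table has 0.50 for Atf3 (DESeq2 adjusted p = 0.00169) and 0.53 for Batf3 (adjusted p = 0.0761). Both genes lie on chromosome 1 and face each other, Batf3 at 191098414 to 191108943 on the plus strand and Atf3 at 191170296 to 191183333 on the minus strand, with 61352 bases between them. Atf3 per Batf3 count was 8.28 for C2cd4a-GFP and 8.53 for Control-GFP, a log2 change of -0.04 (-0.30 to 0.21).

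**Figure D3:**
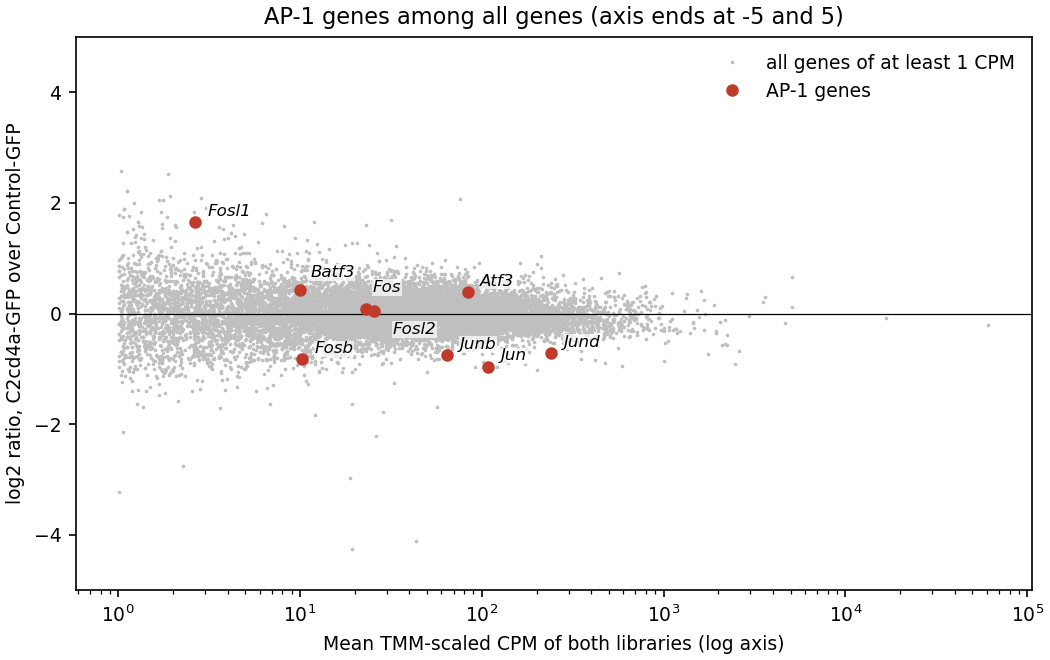
Mean TMM-scaled CPM of both libraries (log axis) against the log2 ratio of C2cd4a-GFP over Control-GFP for 12759 genes (grey), with the 9 AP-1 genes in red; 1 gene lies outside the axis. Jun, Junb and Jund sit on the lower edge of the cloud at high levels, and Fosl1 at its upper edge at 2.65 CPM.

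Ratios of 1 member to another within a library need no library scaling. Of 36 pairs of members, 30 had a count ratio that differed between the libraries by more than counting error. No share over pairs of other genes is given beside this count, so it cannot be read as particular to the AP-1 genes. There were 0.0544 Fosl1 counts per Jun count for C2cd4a-GFP and 0.00888 for Control-GFP, a 6.12-fold change. Jun per Atf3 was 0.781 for C2cd4a-GFP and 1.99 for Control-GFP. Fos per Jun was 0.324 for C2cd4a-GFP and 0.156 for Control-GFP, a log2 change of 1.05 (0.88 to 1.22). The 6 pairs within counting error were Fos with Fosl2, Fosb with Jun, Junb and Jund, Junb with Jund, and Atf3 with Batf3. By count ratios the 9 genes thus fell into Fosl1 alone, Fos with Fosl2, Atf3 with Batf3, and Fosb with the Jun genes, although the log2 ratio of Jun was below those of Junb and Jund by more than counting error. These groups rest on raw counts, which still carry the trends with length and GC content. They also depend on the width of the intervals, which is larger for genes with few counts such as Fosb and Batf3. With both trends removed Jun (-0.82) and Fosb (-0.72) lay below Junb (-0.47) and Jund (-0.48). Atf3 was then at 0.54 and Batf3 at 0.81, and Fos was at 0.22 and Fosl2 at 0.001.

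Levels of different genes were compared per length, as reads per kilobase of exon and library, scaled as CPM is (RPKM). In the C2cd4a-GFP library the order of the RPKM was Jund (63.1), Atf3 (47.9), Junb (26.1), Jun (23.2), Batf3 (16.1), Fos (11.4), Fosl2 (4.43), Fosl1 (2.36) and Fosb (1.95). The counting intervals of Fosl1 and Fosb overlapped there, and no other neighbours did. In the Control-GFP library the order was Jund (103), Jun (45.1), Junb (44.0), Atf3 (36.6), Batf3 (11.9), Fos (10.7), Fosl2 (4.30), Fosb (3.47) and Fosl1 (0.748). There the intervals of Jun and Junb overlapped, as did those of Batf3 and Fos. Atf3 therefore stood above Jun and Junb for C2cd4a-GFP and below both for Control-GFP. If all Fosl1 counts came from the 550 exon bases that it does not share with Ccdc85b, an alternative chosen after seeing the data, Fosl1 would be at 7.30 RPKM for C2cd4a-GFP and 2.32 RPKM for Control-GFP. These are upper values, since only the length was changed and no read was recounted.

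The 9 genes summed to 196 RPKM for C2cd4a-GFP and 260 RPKM for Control-GFP, and the Jun genes alone accounted for a larger gap than that, since others were higher. The Jun genes summed to 112 RPKM for C2cd4a-GFP and 192 RPKM for Control-GFP, or 57.2% and 74.0% of all 9. The share differed by -16.8 percentage points, with a counting SE of 0.596. The Fos genes summed to 20.2 RPKM for C2cd4a-GFP and 19.3 RPKM for Control-GFP, a near-equal total of unlike parts. Within it, Fosl1 made up 11.7% for C2cd4a-GFP and 3.88% for Control-GFP, while Fosb made up 9.69% and 18.0%. Atf3 and Batf3 together held 32.5% of the summed RPKM for C2cd4a-GFP and 18.6% for Control-GFP. These are shares of transcript, and protein was not measured.

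**Figure D4:**
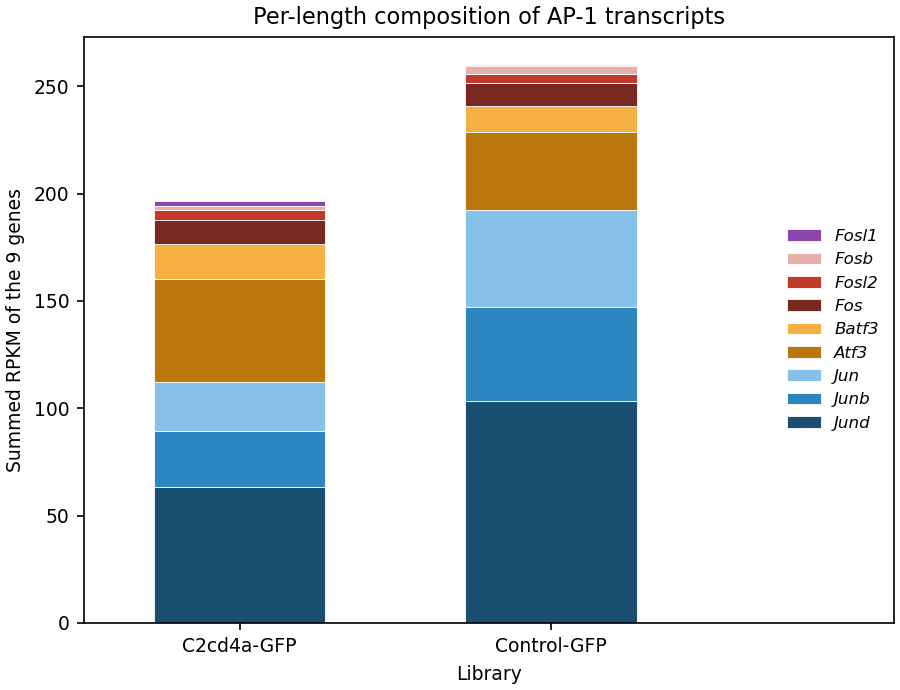
Summed RPKM of the 9 AP-1 genes in the C2cd4a-GFP library (left) and the Control-GFP library (right), stacked by gene, with no error bars because each bar is 1 library. The blue Jun genes total 112 RPKM for C2cd4a-GFP and 192 RPKM for Control-GFP, and the brown and orange segments of Atf3 and Batf3 total 63.9 and 48.4 RPKM.

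Among other bZIP proteins, many of which can pair with Fos or Jun proteins, most genes lay above equality. Of 26 genes 20 had at least 1 CPM, with 16 above and 4 below equality. Of the 20, 2 were called higher and 0 lower, where 4.23% of all genes were called each way. The median log2 ratio of the list was 0.23, beside -0.01 over all genes of at least 1 CPM. With length and GC trends removed the median of the list was 0.39, farther from 0. Cebpg, a partner of several bZIP proteins, had 6798 counts for C2cd4a-GFP and 4263 for Control-GFP, a log2 ratio of 0.67 (0.62 to 0.73), or 0.46 without the trends with length and GC content. Crem, a cAMP-responsive factor, had 415 counts for C2cd4a-GFP and 276 for Control-GFP, a log2 ratio of 0.59 (0.36 to 0.81), or 0.40 without those trends, so neither gene stays past the 1.5-fold limit then. The authors' deposited table has 9 of 24 of these genes higher and 0 lower at an adjusted p under 0.05, Cebpg and Crem among them. Of all its genes 7.0% are higher and 6.58% lower.

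Among factors that act on Fos and Jun transcription, the only genes called were ETS genes of the PEA3 group. Serum response factor and its ETS partners Elk1, Elk3 and Elk4 were not called. The list was chosen with earlier results of these data known, so the calls describe the PEA3 genes and not such regulators as a class. Of 20 regulators of Fos and Jun transcription, among them serum response factor, its ETS partners and MEF2 proteins, 18 had at least 1 CPM, 3 were called higher and 0 lower, where 4.23% of all genes were called each way, and the median log2 ratio was 0.09, or -0.03 at a minimum of 5 CPM. Etv4 had 98 counts for C2cd4a-GFP and 17 for Control-GFP, a log2 ratio of 2.53 (1.77 to 3.36), and Etv5 and Etv1 were the other two, at 1.60 and 1.01. The authors' deposited table has 4 of 19 higher and 1 lower, where 7.0% of all its genes are higher and 6.58% lower.

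The kinase arms that act on AP-1 held 4 called genes, a share near the 8.46% of all genes called either way. Of 23 genes of the ERK arm 0 were called higher and 2 lower, with a median log2 ratio of -0.09. Rps6ka1, a kinase downstream of ERK, had 589 counts for C2cd4a-GFP and 920 for Control-GFP, a log2 ratio of -0.65 (-0.80 to -0.49), and Rasgrp2, an exchange factor for small GTPases, was at -0.63 (-0.85 to -0.41). With length and GC trends removed Rps6ka1 came to -0.47 and Rasgrp2 to -0.54. Of 25 genes of the JNK and p38 arms 2 were called higher and 0 lower, with a median log2 ratio of 0.10, or -0.03 with the trends removed. Mapk10, the JNK gene best known from neurons, had 1903 counts for C2cd4a-GFP and 1196 for Control-GFP (0.67, 0.56 to 0.77), and Map3k5, which encodes the stress kinase ASK1, was at 0.64 (0.46 to 0.83). Without the trends Mapk10 came to 0.40 and Map3k5 to 0.55. The authors' deposited table has 1 gene of the ERK arm higher and 4 lower, and 3 of the JNK and p38 arms higher and 1 lower. Of all its genes 7.0% are higher and 6.58% lower.

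Genes for turnover and cofactors of AP-1 proteins lay near equality, with a median log2 ratio of 0.01 over 21 genes of at least 1 CPM. Of these 0 were called higher and 1 lower, where 4.23% of all genes were called each way. The lower one was Nfatc2, a calcium-regulated factor that binds DNA together with AP-1, at 98 counts for C2cd4a-GFP and 190 for Control-GFP and a log2 ratio of -0.96 (-1.32 to -0.60).

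Of 35 genes known to carry AP-1 sites only 16 reached 1 CPM, and Mmp3, Mmp10, Il6 and Itga5 had 0 counts in both libraries. The 16 had a median log2 ratio of -0.03, with 7 above and 9 below equality. With length and GC trends removed their median was 0.14. Among them 1 was called higher and 1 lower, where 4.23% of all genes were called each way. The 1 called higher was Pdyn, the prodynorphin gene. The 1 called lower was Gadd45b, a stress-response gene, at 356 counts for C2cd4a-GFP and 599 for Control-GFP and a log2 ratio of -0.75 (-0.95 to -0.56), or -0.47 without the trends. The authors' deposited table likewise has 1 of these genes higher and 1 lower, where 7.0% of all its genes are higher and 6.58% lower.

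The other immediate-early genes lay on both sides of equality, as the AP-1 members did. Of 40 genes 36 had at least 1 CPM, of which 15 lay above and 21 below equality. Of the 36, 5 were called higher and 4 lower, where 4.23% of all genes were called each way. The median log2 ratio of the list was -0.26, but -0.07 with the trends removed and -0.0020 at a minimum of 5 CPM. Plk2, a kinase induced by activity, had 526 counts for C2cd4a-GFP and 292 for Control-GFP, a log2 ratio of 0.85 (0.64 to 1.06). Egr4, a zinc-finger factor, had 19 counts for C2cd4a-GFP and 59 for Control-GFP, a log2 ratio of -1.64 (-2.47 to -0.87). Dusp6, a phosphatase that acts on ERK, stood at 1.66, and Npas4, a calcium-induced factor, at -1.84. The authors' deposited table has 8 of 36 higher and 7 lower, where 7.0% of all its genes are higher and 6.58% lower.

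**Figure D5:**
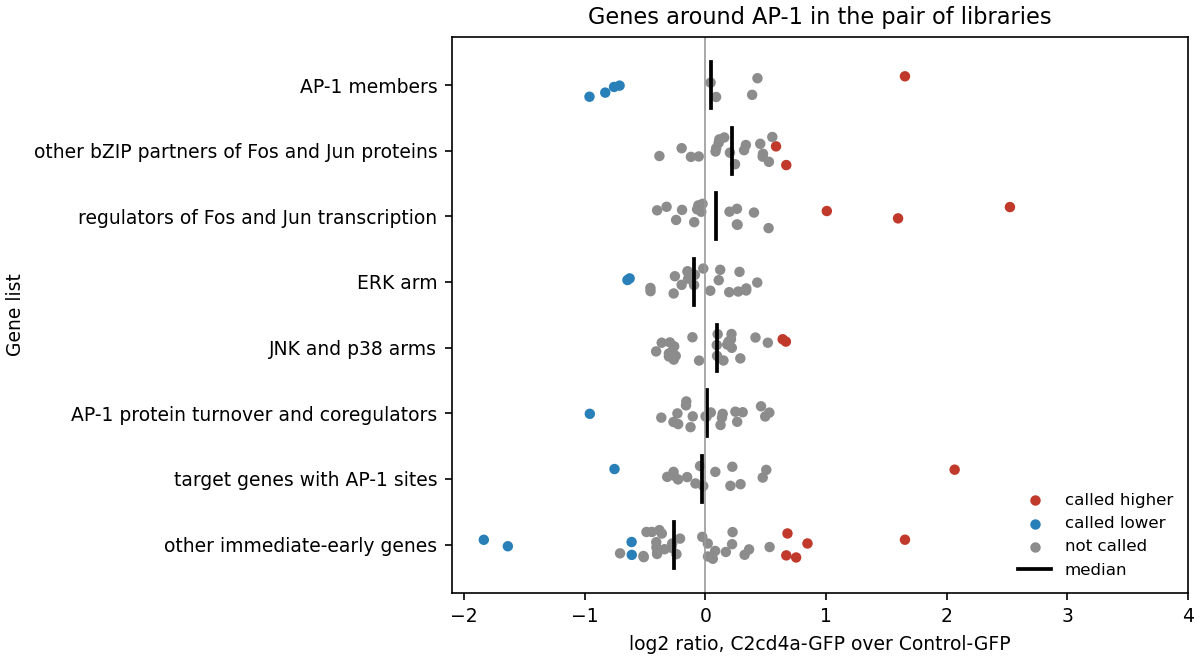
Log2 ratio of C2cd4a-GFP over Control-GFP for genes of at least 1 CPM in 8 gene lists, with red points called higher, blue called lower, grey not called and a black bar at each median; vertical scatter has no meaning. The AP-1 genes form a lower group of 4, a middle group and Fosl1, while the list labelled bZIP partners lies mostly to the right of 0, with a median of 0.23.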

How the data were processed

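Per the labels' protocols, directional libraries of poly-A RNA gave paired reads of 42 bp. The submitters' processing notes list the genome build mm10 and the tools DESeq2 (version 1.14.1), Subread (1.5.2), featureCounts and STAR (2.5.2b), and do not say what each did. The authors deposited raw counts per gene with summed exon length. Beside them the authors deposited a log2 fold change and p-values, and in a further file a normalized value (a score) for each gene and condition.

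Counts were scaled with TMM factors (1.015 for C2cd4a-GFP and 0.985 for Control-GFP) from edgeR 4.0.16 in R 4.3.3. Intervals are exact Clopper-Pearson 95% intervals conditional on the sum of both counts. The number of independent molecules is unknown, so intervals cover counting error only. No replicate test was possible with 1 library in each group. GC content came from the longest GENCODE M21 transcript of each symbol (96.9% of genes of at least 1 CPM), and lowess trends had a span of 0.3. The code was tested on simulated counts. Alternatives covered scaling by upper quartile, by total counts and by DESeq2 1.42.0 size factors, thinning, a prior count of 2, the trends, the filter and the size rule.

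The members and lists were chosen with earlier results of these data known. All 9 members are named, and from each other list up to 4 called genes whose interval bound lay farthest from equality (otherwise the 2 most abundant, given here for the lists of AP-1 biology only). A planned comparison of the proteins was not analysed here, and a few of the marker genes are left out of the text.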

Additional observations from a re-analysis of the deposited data

How the results depend on the processing

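No paired analysis was possible because each group has 1 library. Among the 8 alternatives run for each member's log2 ratio, none turned the direction of a called member; Fosl2, which is not called, came to -0.09 with the length trend removed. The number of members called higher, 1, became 2 when the length trend alone or both length and GC trends were removed (Batf3 is added), 3 at the smaller of the other fold limits tried (Atf3 and Batf3 are added), and 0 at a minimum of 5 CPM, which removes Fosl1. The number called lower, 4, became 2 with both trends removed and 2 by the authors' deposited fold change and adjusted p (Jun and Fosb in both), and 0 at a ratio of at least 2, which Jun misses at 1.94-fold. Over all genes, removing the length trend gave 475 higher and 479 lower of 12759. Removing both trends gave 417 higher and 331 lower of 12358 genes. The authors' deposited values gave 404 higher and 304 lower of 14619 genes. No count over all genes is given for the other fold limits or the minimum of 5 CPM. The median of the members, 0.04, became -0.33 at a minimum of 5 CPM, where Fosl1 drops out. The difference in the Jun genes' share, -16.8 percentage points per length, was -14.1 points from counts without length and -19.9 points without Jund, the most abundant member. The other alternatives run left the numbers of called members the same and their median within counting error. For the Jun genes' share only the alternatives given above were run. It was not recomputed under other scalings or with the trends removed. Depth limits Fosl1 most, since its Control-GFP value rests on 39 counts.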

Other observations

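The normalized values that the authors deposited differ from the raw counts by more than 1 factor per library, and in the C2cd4a-GFP library they part most for Jund and Junb among the AP-1 genes. For Jund the authors' deposited table has a normalized value of 7670 for C2cd4a-GFP and 9496 for Control-GFP, which is 1.38 times and 1.04 times the raw count. For Junb it has 1950 and 2659 in C2cd4a-GFP and Control-GFP, which is 1.33 times and 1.07 times the raw count. Among genes of at least 1000 counts the same factor ran from 0.849 to 1.24 for C2cd4a-GFP and from 0.901 to 1.09 for Control-GFP (5th to 95th percentile), so Jund and Junb lay above that range in the C2cd4a-GFP library alone. For Jun the factor was 1.01 for C2cd4a-GFP and 0.984 for Control-GFP, and for Fosb 1.03 and 0.993.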
